A study of Mus musculus with 24 samples.

Results

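The end-joining repair genes Prkdc, Lig4, Xrcc4, Xrcc5, Xrcc6, Nhej1, Dclre1c and Parp1 were followed through chromatin immunoprecipitation sequencing of irradiated mouse fibroblasts. They are represented by the 16 bins of 100 kb that overlap the 8 gene bodies, out of 26350 bins on the 19 autosomes and chromosome X. Every one lies on an autosome, and all 16 passed the filter on low counts. The cells were primary embryonic fibroblasts (MEFs) of C57BL6 background, either lacking the deacetylase SIRT7 (KO) or wild type (WT), from female and male embryos. All groups had received 5 Gy of X-rays and had recovered for 30 min. Female KO, female WT, male KO and male WT cells each gave 2 libraries with an antibody to gH2AX, 2 with an antibody to H2AX and 2 of input chromatin, 24 in all. No unirradiated sample is used here, so a signal raised by X-rays cannot be told apart from one present before. DNA counts carry no expression, so the cell type could not be checked.

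Non-homologous end joining seals DNA double-strand breaks without a template. The Ku heterodimer (Xrcc6 encodes Ku70, Xrcc5 encodes Ku80) threads onto the broken ends and recruits DNA-PKcs (Prkdc), a kinase; Artemis (Dclre1c) trims ends, XLF (Nhej1) and Xrcc4 hold them together, and DNA ligase IV (Lig4) joins them. Parp1 senses breaks and takes part in a back-up route, alternative end joining. The histone variant H2AX is phosphorylated to gH2AX around breaks, by DNA-PKcs among other kinases. What follows measures these marks on the genes themselves, not the repair proteins.

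Libraries held 84.5 M to 212 M reads for gH2AX, 66.9 M to 250.2 M for H2AX and 92.4 M to 269 M for input (M, mega). A member bin held 1626 to 12022 reads in a library, which puts the counting error at 0.912% to 2.48%. The input libraries fell into the labelled sexes, with log2 X over autosomal reads at -4.00 to -3.99 in 4 female and at -4.86 to -4.85 in 4 male libraries. Libraries of a group differed by more than counting error (chi-square over its degrees of freedom, 2.58 to 3.90). The labels do not say that the 2 libraries of a group are separate cultures, so p-values measure only the spread between these libraries. A KO effect below is a difference between KO and WT libraries, in which genotype and the cultures used cannot be told apart.

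The genes fill their bins unequally, and most bins hold other genes. Prkdc (chr16:15637444-15842239, mm10 throughout) spans 3 bins, with Mcm4 in bin 1 and Cebpd, Mzt2 and Spidr in bin 3. Xrcc4 (chr13:89848914-90089608) spans 3 bins, the last shared with Tmem167. Nhej1 (chr1:74967346-75125226) fills bin 2 alone, while its bin 3 holds 25.2 kb of it beside 8 other protein-coding genes. Xrcc6 (chr15:81987833-82040085) has 12.2 kb in bin 1, with 6 other genes, and 40.1 kb in bin 2, with 4. Xrcc5 (chr1:72307417-72394953), Dclre1c (chr2:3424061-3474211) and Lig4 (chr8:9970020-9977680) lie in 1 bin each, and Lig4 covers only 7.66 kb of it, beside Abhd13. Parp1 (chr1:180568891-180600999) is nearly all in its bin 1 and has 0.999 kb in bin 2. Bins are numbered along the chromosome, and the lead bin of a gene is the one that holds most of its body.

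Promoter sequences are shown for 4 genes. Those of Nhej1 (bin 3) and Dclre1c lie in bins where gH2AX was called higher in male KO cells in every fit with a library left out, that of Xrcc6 (bin 2) in a bin whose call was less stable, and that of Xrcc4 (bin 3) in the gene with the least of both marks. Each is the 150 bases before the start given in a RefSeq promoter table, build GRCm38.p6, read along the gene. That start is not always the edge of the gene body given above: for Xrcc6 it lies inside the body, in bin 2, while the body begins in bin 1, and for Dclre1c it also lies inside. The stretches are printed with GC boxes (GGGCGG or CCGCCC) and CCAAT boxes (CCAAT or ATTGG) in capitals.
Xrcc6, plus strand, chr15:82016219-82016368: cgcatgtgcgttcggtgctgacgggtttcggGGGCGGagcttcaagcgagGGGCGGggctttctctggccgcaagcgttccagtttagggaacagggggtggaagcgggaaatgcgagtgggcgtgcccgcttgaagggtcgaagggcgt
Nhej1, minus strand, chr1:75125227-75125376: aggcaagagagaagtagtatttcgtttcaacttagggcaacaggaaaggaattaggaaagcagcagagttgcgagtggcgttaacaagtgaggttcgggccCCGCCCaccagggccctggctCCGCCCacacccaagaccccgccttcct
Dclre1c, plus strand, chr2:3423981-3424130: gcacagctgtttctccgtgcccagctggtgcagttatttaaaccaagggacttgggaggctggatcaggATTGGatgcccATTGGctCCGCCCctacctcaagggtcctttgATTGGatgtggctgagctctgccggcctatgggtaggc
Xrcc4, minus strand, chr13:90089609-90089758: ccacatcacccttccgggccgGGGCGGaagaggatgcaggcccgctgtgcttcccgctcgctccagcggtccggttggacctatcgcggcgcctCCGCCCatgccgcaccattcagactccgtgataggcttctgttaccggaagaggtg
The promoter table had 8 entries for 7 of the 8 genes, all but Prkdc, with 2 for Lig4. A GC box on either strand was present in 6 of the 8 entries, not in that of Xrcc5 nor in the first of Lig4, against 28.6% of 32817 mouse promoters over the same length. Only the Dclre1c entry held a CCAAT box, against 24.5% of all promoters. The motifs do not overlap each other, a match is a run of letters and no binding site, and the 100 kb bins do not resolve a promoter.

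Relative to the bulk of autosomal bins, both marks were above the level of input on most of these genes. Libraries were scaled on autosomal bins, so ratios to input and KO over WT changes are relative. A gain or loss shared by the whole genome would not show. gH2AX over input was higher in 12 of the 16 bins and lower in 3 (edgeR's quasi-likelihood test over all 24 libraries, adjusted p under 0.05), against 40.9% of all bins called higher and 45.8% called lower. The median log2 ratio was 0.15 in the member bins and -0.02 over all bins. H2AX over input gave the same numbers, 12 bins higher and 3 lower, against backgrounds of 44.2% and 45.2%, with a median of 0.18 in the members and -0.00 over all bins. The 3 bins below input were those of Xrcc4 for both marks.

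Of the Ku genes, Xrcc6 had the highest gH2AX over input of all 8 genes, and Xrcc5 stood lower. Xrcc6 bin 1 had a log2 gH2AX over input of 0.46 ± 0.02 (SE throughout) and its lead bin 2 had 0.34 ± 0.02. These values stand above 97.6% and 92.2% of all tested autosomal bins. Both bins hold 5 or more protein-coding genes, and autosomal bins of that class outside the member genes had a median of 0.33. In the lead bin of Xrcc6, gH2AX reads ran at 42.1 and 44.8 CPM (counts scaled to library size) in female KO, 47.7 and 45.3 in female WT, 44.6 and 45.7 in male KO, and 42.3 and 42.6 in male WT libraries. Input there ran at 33.6 and 36.3 CPM in female KO, 33.7 and 35.9 in female WT, 33.6 and 35.8 in male KO, and 36.2 and 35.8 in male WT. All 8 gH2AX libraries thus lay above all 8 input libraries. Xrcc5, its partner, had 0.21 ± 0.02 for gH2AX and 0.33 ± 0.02 for H2AX.

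DNA-PKcs and its nuclease differed. Prkdc, a long gene, had 0.07 ± 0.02, 0.03 ± 0.02 and 0.13 ± 0.02 for gH2AX over input in bins 1 to 3. Bins 1 and 3 were called higher. The lead bin 2 was near input and did not pass the same edgeR test (adjusted p = 0.0798, and 0.0340 with TMM over all bins). For H2AX its bin 1 was at -0.02 ± 0.02 (adjusted p = 0.226) and its bin 3 at 0.22 ± 0.02. Dclre1c had 0.24 ± 0.02 for gH2AX and 0.10 ± 0.02 for H2AX. Its gH2AX reads ran at 43.6 and 42.5 CPM in female KO, 40.9 and 43.1 in female WT, 45.2 and 46.3 in male KO, and 41.3 and 40.8 in male WT. Its H2AX reads ran at 37.4 and 39.6 CPM in female KO, 39.1 and 39.3 in female WT, 40.8 and 38.4 in male KO, and 40.1 and 38.8 in male WT. Within each of the 4 groups, both gH2AX libraries lay above both H2AX libraries. The bin of Dclre1c also holds Hspa14, Meig1 and Suv39h2.

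Among the ligation factors the values spread most widely. Nhej1 had 0.28 ± 0.02, 0.11 ± 0.02 and 0.40 ± 0.02 for gH2AX in its bins 1 to 3, and 0.40 ± 0.02, 0.13 ± 0.02 and 0.40 ± 0.02 for H2AX. The bin that Nhej1 fills alone is thus the lowest of its 3 for both marks. That bin also held fewer reads than the others, with input at 19.9 to 22.1 CPM, against 26.4 to 28.7 CPM in bin 3 and 34.2 to 36.4 CPM in bin 1. Lig4 had 0.06 ± 0.02 for gH2AX and 0.11 ± 0.02 for H2AX.

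Xrcc4 was the one gene of the 8 below input. Its bins 1 to 3 had -0.18 ± 0.02, -0.12 ± 0.02 and -0.14 ± 0.02 for gH2AX and -0.24 ± 0.02, -0.11 ± 0.02 and -0.15 ± 0.02 for H2AX. In the lead bin, gH2AX reads ran at 34.6 and 33.4 CPM in female KO, 33.9 and 33.6 in female WT, 33.9 and 34.0 in male KO, and 33.2 and 33.6 in male WT. Input ran at 37.2 and 36.3 CPM in female KO, 36.4 and 36.2 in female WT, 36.3 and 38.1 in male KO, and 35.3 and 37.0 in male WT. No gH2AX library of that bin reached an input library. For gH2AX over input, 18.1%, 30.5% and 26.4% of all tested autosomal bins lay below the 3 bins of Xrcc4, so values as low are common in the genome.

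Parp1 had 0.28 ± 0.02 for gH2AX and 0.38 ± 0.02 for H2AX in its lead bin. Over the lead bins, the order of gH2AX over input was Xrcc6, Parp1, Dclre1c, Xrcc5, Nhej1, Lig4, Prkdc and Xrcc4. Neighbours in that order lay more than 2 joint SE apart only between Xrcc6 and Parp1, between Xrcc5 and Nhej1, and between Prkdc and Xrcc4. For H2AX the order was Parp1, Xrcc5, Xrcc6, Nhej1, Lig4, Dclre1c, Prkdc and Xrcc4, with such gaps only between Xrcc6 and Nhej1 and between Prkdc and Xrcc4.

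**Figure D1:**
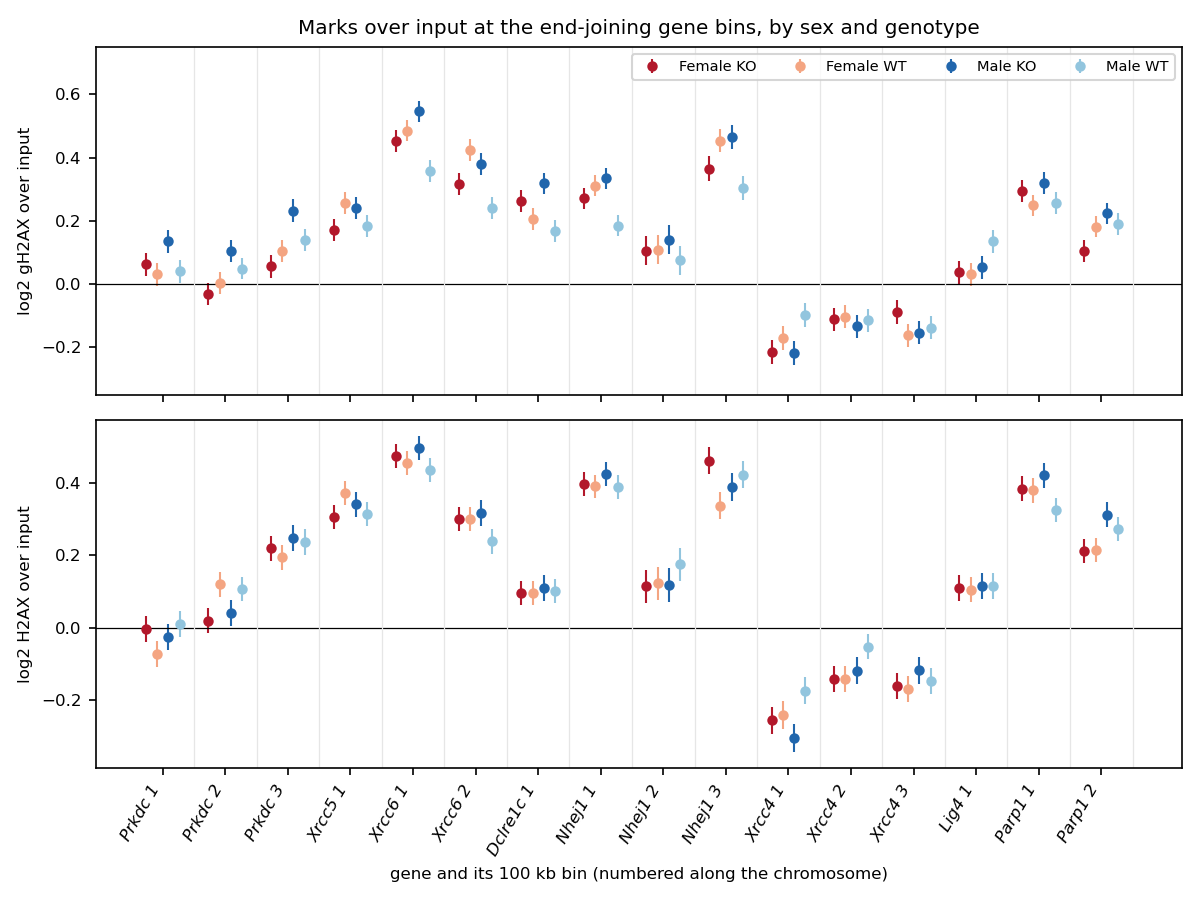
Log2 ratio of gH2AX (top) and H2AX (bottom) to input in each member bin, with 1 point per sex and genotype group (2 antibody and 2 input libraries each) and bars of 1 SE from the fit of all libraries. The 3 bins of Xrcc4 are below 0 in every group for both marks, while bin 1 of Xrcc6 and bin 3 of Nhej1 are the highest for gH2AX in male KO cells, at 0.55 and 0.47.

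gH2AX set directly against H2AX split the genes. The ratio was higher in 4 of the 16 bins, against 39.1% of all bins, and lower in 7, against 36.1%. Whether these counts depart from the background was not tested. Dclre1c had the highest ratio of the 16, at 0.14 ± 0.02 (adjusted p = 2.16e-13). Bin 1 of Prkdc followed at 0.09 ± 0.02, bin 1 of Xrcc4 at 0.07 ± 0.02 and the lead bin of Xrcc6 at 0.05 ± 0.02. The lowest were bin 1 of Nhej1 at -0.13 ± 0.02, Xrcc5 at -0.12 ± 0.02 and the lead bin of Parp1 at -0.10 ± 0.02. The remaining bins called lower were bin 2 of Parp1, bins 2 and 3 of Prkdc and that of Lig4. Of all tested autosomal bins, 86.3% lay below Dclre1c in this ratio.

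The ratios followed how many genes a bin holds. Over autosomal bins outside the member genes, the median log2 gH2AX over input was -0.13 in 8412 bins with no protein-coding gene. It was 0.01 with 1 gene, 0.12 with 2, 0.20 with 3 to 4 and 0.33 with 5 or more. The members' medians were 0.03 for 5 bins with 1 gene, 0.07 for 4 bins with 2, 0.21 for 4 bins with 3 to 4 and 0.40 for 3 bins with 5 or more. Every member bin holds at least 1 gene, and all bins include those with none. For H2AX the members' medians were 0.07, 0.04, 0.24 and 0.40 in these classes, against 0.02, 0.14, 0.21 and 0.34 over the other autosomal bins.

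In male cells gH2AX was higher in KO than in WT at 8 of the 16 member bins and lower at none (edgeR's quasi-likelihood test, adjusted over 25702 bins). Over all bins, 22.9% were called higher: 11448 were called in either direction, 5874 of them higher. The share rose with the number of protein-coding genes in a bin. Among autosomal bins outside the member genes it was 23.9% with 1 gene, 38.1% with 2, 50.6% with 3 to 4 and 65.1% with 5 or more. These classes hold 5, 4, 4 and 3 of the member bins. The median change was 0.09 in the members and -0.01 over all bins. The 8 bins belong to Xrcc6 (both), Nhej1 (all 3), Dclre1c and Prkdc (bins 1 and 3). Both KO libraries lay above both WT libraries in 11 of the 16 bins and below them in none, against 36% of all bins with KO above. All changes were small, at most 1.13-fold.

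The bin changed most was bin 1 of Xrcc6, with gH2AX at 52.6 and 51.6 CPM in male KO against 46.2 and 45.6 CPM in male WT. Both KO libraries were above both WT libraries, by 0.18 ± 0.03 on the log2 scale (1.13-fold, adjusted p = 6.35e-06). Bin 3 of Nhej1 had 37.2 and 38.3 CPM in KO against 34.5 and 33.1 CPM in WT, a change of 0.16 ± 0.04 (adjusted p = 0.000168). Dclre1c had 45.2 and 46.3 CPM in KO against 41.3 and 40.8 CPM in WT, a change of 0.16 ± 0.03 (adjusted p = 0.000102). In these 3 bins the groups did not overlap, and the call held in each of the 4 fits that left out 1 male gH2AX library.

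The other 5 calls each depended on single libraries. The lead bin of Nhej1, which holds no other protein-coding gene, had 24.5 and 22.3 CPM in male KO against 21.4 and 20.5 CPM in male WT, a change of 0.15 ± 0.05 (adjusted p = 0.00658). Without KO replicate 1 it was 0.09, and the call was lost (adjusted p up to 0.207 over the 4 fits); it was also lost without WT replicate 2. Bin 1 of Nhej1 changed by 0.10 ± 0.04 (adjusted p = 0.018) and lost its call without KO replicate 2 or without WT replicate 1. The lead bin of Xrcc6 changed by 0.09 ± 0.04, with 44.6 and 45.7 CPM in KO against 42.3 and 42.6 CPM in WT (adjusted p = 0.0241). Bins 1 and 3 of Prkdc changed by 0.10 ± 0.04 each (adjusted p = 0.0203 and 0.0163). These last 3 bins kept their call in only 1 of the 4 fits: Xrcc6 in that without KO replicate 1, bin 1 of Prkdc in that without WT replicate 2 and bin 3 of Prkdc in that without WT replicate 1. DESeq2 did not call the lead bin of Xrcc6 (adjusted p = 0.0659) or bin 3 of Prkdc (adjusted p = 0.0527).

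The remaining bins did not pass the test in males. The lead bin of Prkdc was at 38.1 and 40.5 CPM in KO against 37.3 and 37.4 CPM in WT, a log2 difference of 0.08 ± 0.04 (adjusted p = 0.0567). Xrcc5 was at 43.6 and 41.9 CPM in KO against 42.0 and 40.0 CPM in WT, a log2 difference of 0.05 ± 0.04 (adjusted p = 0.20). Parp1 was at 42.5 and 42.2 CPM in KO against 40.0 and 42.4 CPM in WT, a log2 difference of 0.04 ± 0.04 (adjusted p = 0.319). Lig4 was at 36.6 and 37.4 CPM in KO against 36.9 and 40.3 CPM in WT, a difference of -0.05 ± 0.04 (adjusted p = 0.225), and it passed at -0.12 without WT replicate 1 and was at 0.01 without WT replicate 2. The 3 bins of Xrcc4 were at -0.02 ± 0.04, 0.02 ± 0.04 and -0.01 ± 0.04. In Xrcc5, the lead bin of Parp1, Lig4 and bins 1 and 3 of Xrcc4 the KO and WT libraries overlapped.

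**Figure D2:**
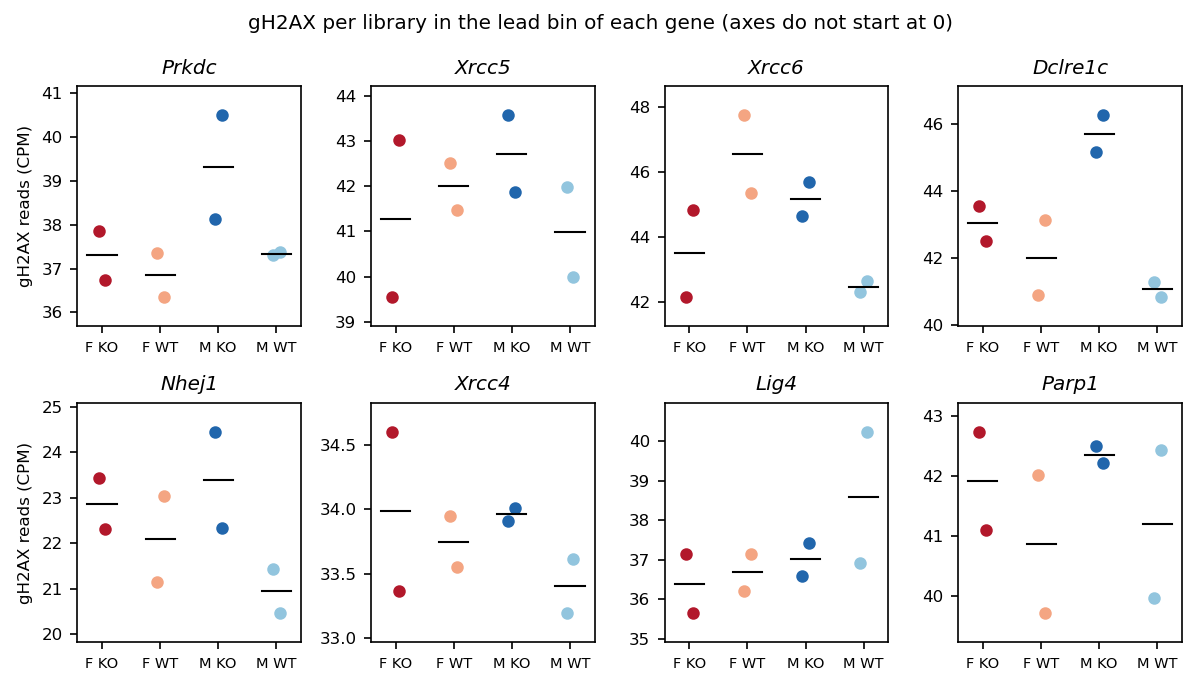
gH2AX reads in CPM for each of the 8 gH2AX libraries in the lead bin of each gene, by sex (F, female; M, male) and genotype, with a line at the mean of the 2 libraries. Axes do not start at 0 and differ between genes; the 2 male KO libraries of Dclre1c, at 45.2 and 46.3, sit above the 2 male WT libraries, at 41.3 and 40.8.

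In female cells 1 of the 16 bins was called, bin 3 of Nhej1, which was lower in KO, against 0.595% of all bins called lower. It had 34.9 and 33.8 CPM of gH2AX in female KO against 38.1 and 38.0 CPM in female WT, with no overlap. The change was -0.15 ± 0.04 (adjusted p = 0.0194), and the call held in only 1 of 4 fits with a library left out (adjusted p 0.0393 to 0.316): it was lost without KO replicate 2, without either WT library and in DESeq2. Input in the same bin was at 27.0 and 26.4 CPM in female KO against 27.9 and 27.8 CPM in female WT, a difference of -0.06 ± 0.04 (adjusted p = 0.742). With that subtracted, gH2AX over input differed by -0.09 ± 0.05 (adjusted p = 0.466). The median change of gH2AX was -0.01 over the member bins and 0.00 over all bins, and both KO libraries lay below both WT libraries in 3 bins, against 21.3% of all bins.

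No other member bin passed in females. The lead bin of Xrcc6 had 42.1 and 44.8 CPM in KO against 47.7 and 45.3 CPM in WT, a log2 difference of -0.10 ± 0.04 (adjusted p = 0.167). Dclre1c had 43.6 and 42.5 CPM in KO against 40.9 and 43.1 CPM in WT, a log2 difference of 0.03 ± 0.04 (adjusted p = 0.713). Bin 3 of Xrcc4 had 36.5 and 36.6 CPM in KO against 32.5 and 36.8 CPM in WT, a log2 difference of 0.07 ± 0.04 (adjusted p = 0.365). There, WT replicate 1 stood apart from the other 3 libraries, and without WT replicate 2 this bin was called higher in KO, at 0.17 (adjusted p = 0.0418).

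The KO effect itself differed between the sexes in 5 of the 16 bins, all with a lower effect in females. Over all bins, 20.7% were called lower: 10369 were called in either direction, 5326 of them lower. That share varied with the gH2AX over input ratio. Among bins matched to a member bin on it, 0.12% (bin 1 of Xrcc4) to 92.5% (bin 1 of Xrcc6) were called lower. The difference (female effect minus male effect) was -0.31 ± 0.05 in bin 3 of Nhej1 (adjusted p = 6.49e-07), where KO was lower than WT in females and higher in males. It was -0.20 ± 0.05 in bin 1 and -0.19 ± 0.05 in bin 2 of Xrcc6 (adjusted p = 0.000451 and 0.00135), -0.17 ± 0.05 in bin 3 of Prkdc (adjusted p = 0.00641) and -0.12 ± 0.05 in Dclre1c (adjusted p = 0.0378). The first 3 were called in each of 8 fits with a library left out, bin 3 of Prkdc in 6 and Dclre1c in 3. Bin 3 of Prkdc was not called without female KO replicate 2 or without female WT replicate 2. Dclre1c was called without female KO replicate 1, female WT replicate 1 or male KO replicate 1 and not in DESeq2 (adjusted p = 0.0714). The median difference was -0.09 in the members and 0.01 over all bins. This comparison uses the same 8 libraries as those within each sex.

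No member bin was called for H2AX or for input. For H2AX, KO differed from WT at 0 of the 16 bins in males and at 0 in females, against 0.187% and 0.152% of all bins (edgeR's quasi-likelihood test). At an unadjusted p under 0.05, there were 2 bins in males, both of Parp1 (0.08 and 0.07), and 0 in females, and DESeq2 called 0 in either sex. For input, 0 bins were called in males and 0 in females, against 0.222% and 0.183%. At an unadjusted p under 0.05 there was 1 in males, bin 1 of Xrcc4 (0.09 ± 0.03), and 0 in females, and DESeq2 called 0. In bin 1 of Xrcc6, H2AX was at 50.3 and 50.8 CPM in male KO against 49.5 and 48.1 CPM in male WT. Both KO libraries of that bin lay above both WT libraries, by a log2 difference of 0.05 that was not called. Input there was at 36.3 and 35.2 CPM in male KO against 35.8 and 36.1 CPM in male WT.

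With gH2AX taken over input in each genotype, 5 bins remained higher in male KO than in male WT, against 11.0% of all bins. They were both bins of Xrcc6 (0.19 ± 0.05 and 0.14 ± 0.05), bins 1 and 3 of Nhej1 (0.15 ± 0.05 and 0.16 ± 0.05) and Dclre1c (0.15 ± 0.05). The lead bin of Nhej1 was at 0.06 ± 0.07 (adjusted p = 0.497). Its input was at 21.3 and 20.9 CPM in male KO against 20.1 and 19.9 CPM in male WT, so both KO input libraries also lay above both WT ones. In females 0 bins were called, against 0.366% of all bins, with 1 at an unadjusted p under 0.05 (the lead bin of Xrcc6, -0.11 ± 0.05) and 0 by DESeq2. With 1 library left out, the number called in males varied, and without input male KO replicate 2 the calls went in both directions.

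Each member bin was then set beside all autosomal bins with a gH2AX over input ratio within 0.05 (log2) of its own, 716 to 4881 bins each. This is a description without a test. In males the change of 15 of the 16 bins lay between the 5th and 95th percentiles of its like bins, and the lead bin of Nhej1, at 0.15 against a like median of 0.06, lay above. Its male input change, 0.08, also lay above that of its like bins, and with gH2AX taken over input its change was inside the range, at 0.06 against 0.05. For that measure Lig4 was the 1 bin outside in males, below its range at -0.08 against a like median of 0.03. The member bins were above the like median in 10 cases and below in 6. Bin 1 of Xrcc6 changed by 0.18 against a like median of 0.15, and 94.8% of its 716 like bins were called higher. Bin 3 of Nhej1 changed by 0.16 against 0.14, with 91.5% of like bins called, and Dclre1c by 0.16 against 0.10, with 66% called. The lead bin of Parp1 was lower than most of its like bins, at 0.04 against a like median of 0.11, with 7.9% of them below it. Lig4 was at -0.05 against 0.04, with 6.19% of like bins below it. The 3 bins of Xrcc4 stood above most of theirs, at -0.02, 0.02 and -0.01 against like medians of -0.10, -0.06 and -0.07, with 91.6%, 93.6% and 87.9% of like bins below them.

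**Figure D3:**
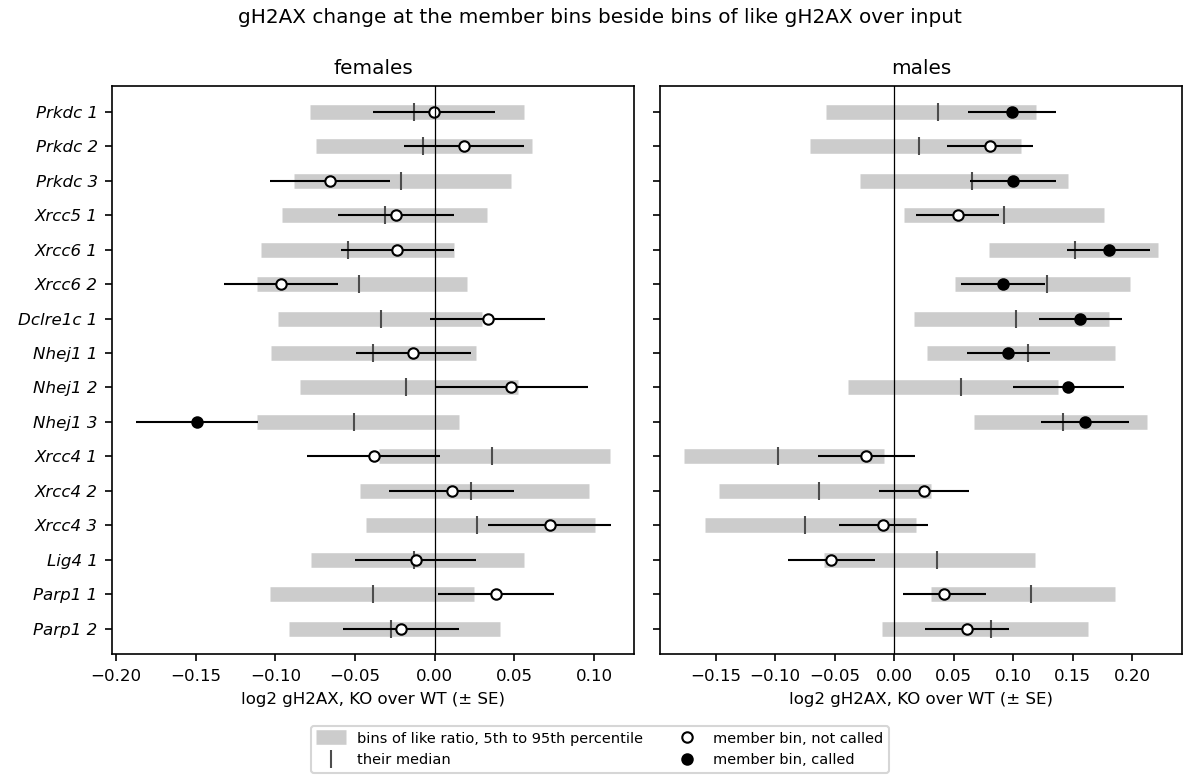
Log2 change of gH2AX in KO over WT at each member bin (circles with bars of 1 SE; filled where called), beside the 5th to 95th percentile (grey) and median (tick) of autosomal bins with a like gH2AX over input ratio. In males 15 of the 16 bins lie within the grey range; in females 12 do, with 2 above (Dclre1c, lead bin of Parp1) and 2 below (bin 3 of Nhej1, bin 1 of Xrcc4).

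Along the whole genome the male change moved with the ratio. Its median was -0.15 in 206 bins with a log2 gH2AX over input of -0.4 to -0.3, -0.02 in those from -0.1 to 0, 0.10 from 0.2 to 0.3 and 0.19 in 72 bins from 0.6 to 0.7. In females the median went the other way over these classes, at 0.07, 0.01, -0.03 and -0.06. The ratio here includes the libraries whose change is plotted; matching each sex on the ratio of the other sex left the same numbers outside the range, 1 in males and 4 in females. With the trend on this ratio taken out of each library, 0 member bins were called in males (of 432 over all bins), 0 in females (of 66) and 0 for the difference between the sexes (of 223). In females, the bins outside their like range were Dclre1c (0.03 against a like median of -0.03) and the lead bin of Parp1 (0.04 against -0.04) above, and bin 3 of Nhej1 (-0.15 against -0.05) and bin 1 of Xrcc4 (-0.04 against 0.04) below. The female input change of bin 3 of Nhej1, -0.06, also lay below that of its like bins, and over input its gH2AX change was inside the range, at -0.09 against -0.07. For H2AX over input, all 16 bins lay within the range of their like bins. The uncalled male H2AX changes of both Parp1 bins, 0.08 and 0.07, lay above that range.

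**Figure D4:**
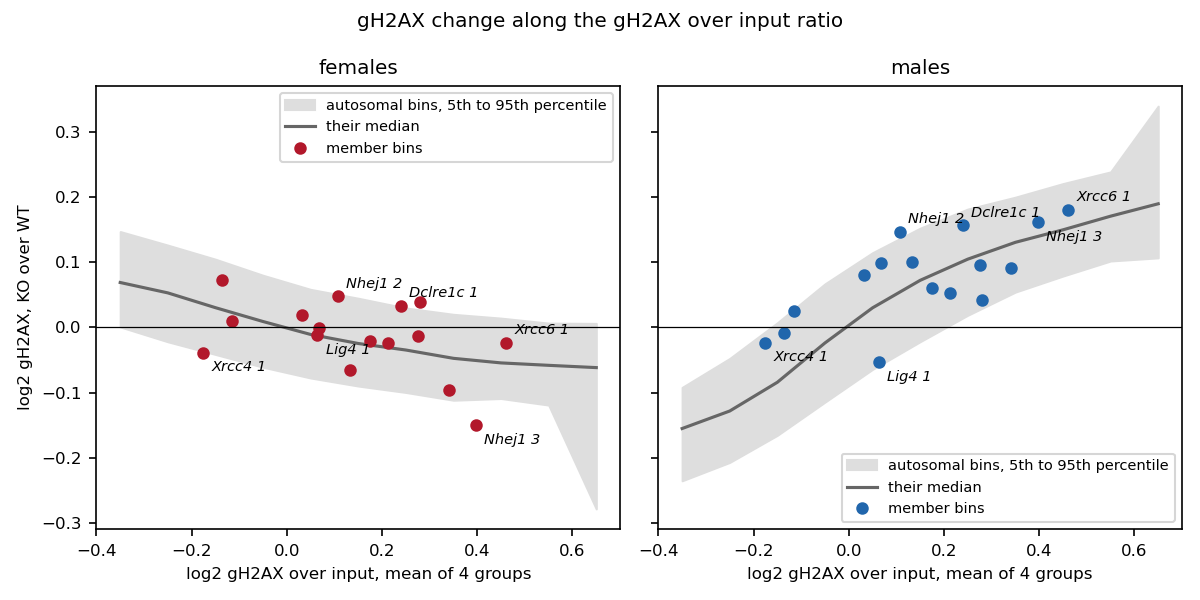
Log2 change of gH2AX in KO over WT against the mean log2 gH2AX over input, for the 16 member bins (points) and all autosomal bins (grey band, 5th to 95th percentile in steps of 0.1; line, median). The band climbs with the ratio in males, with medians of -0.15 to 0.19, and declines in females, with medians of 0.07 to -0.06, and most member bins lie in it.

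Further genes of the pathway, 28 in lists of 11, 9 and 8, were read in their lead bins. gH2AX over input was higher in 26 of the 28 and lower in 0, with a median of 0.23, against 40.9% of all bins called higher and 45.8% called lower. Each of these bins holds at least 1 gene, and the ratio follows the number of genes in a bin, as given above. In males gH2AX was higher in KO than in WT in 17 of the 28 and lower in 0, with a median of 0.10. Over all bins 22.9% were called higher, as given above. That share also followed the number of genes. Among autosomal bins outside the member genes it was 5.17% with no protein-coding gene and 23.9% with 1. It was 38.1% with 2, 50.6% with 3 to 4 and 65.1% with 5 or more. The 28 genes were not set beside bins of like ratio. Among end-processing and accessory factors 6 of 11 were higher, including Tdp1 (0.18 ± 0.04), which frees ends from trapped topoisomerase, and the polymerase Poll (0.16 ± 0.03). Among genes that steer breaks away from resection 6 of 9 were higher, including the ubiquitin ligase Rnf8 (0.21 ± 0.03) and Rif1 (0.16 ± 0.04), a partner of 53BP1. Of the genes of alternative end joining 5 of 8 were higher, including the scaffold Xrcc1 (0.25 ± 0.03) and Parp2 (0.22 ± 0.03), a relative of Parp1. In females 0 of the 28 were called in either direction, against 260 of the 25702 bins tested. The difference between the sexes was lower in 14 of the 28 and higher in 0, against 20.7% of all bins called lower.

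Near Xrcc4, input itself differed between KO and WT in bins that ended short of the gene. In females, input was lower in KO than in WT by log2 -0.30 ± 0.03, -0.41 ± 0.03 and -0.41 ± 0.03 in the bins chr13:89400001-89500000, chr13:89500001-89600000 and chr13:89600001-89700000, the last 2 of which overlap Hapln1 and the last also Vcan, both genes of the extracellular matrix. gH2AX changed there by -0.21 ± 0.04, -0.38 ± 0.03 and -0.34 ± 0.03 and H2AX by -0.20 ± 0.04, -0.46 ± 0.03 and -0.35 ± 0.03. The next bin towards Xrcc4 was at 0.02 ± 0.03 for input. The 3 bins of Xrcc4 had input differences of 0.00 ± 0.03, 0.02 ± 0.03 and -0.00 ± 0.03 in females. In males the 3 bins below Xrcc4 had input differences of -0.01 ± 0.03, -0.02 ± 0.03 and 0.04 ± 0.03.

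**Figure D5:**
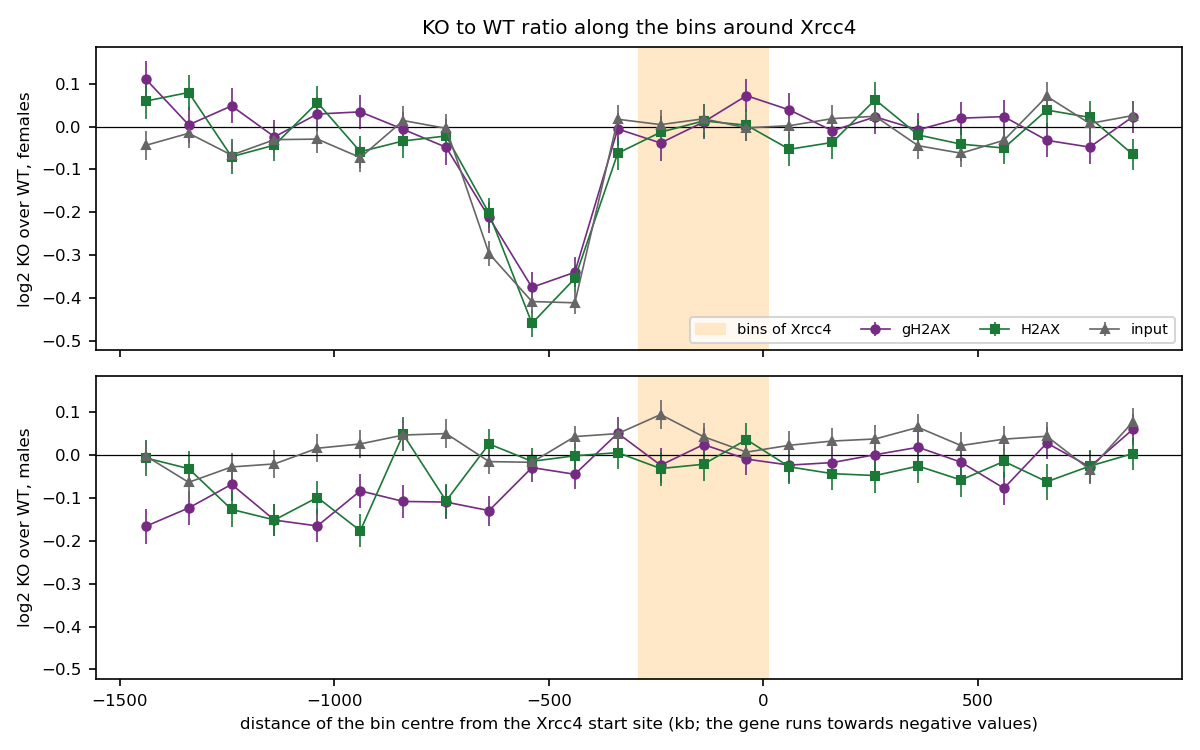
Log2 ratio of KO to WT for gH2AX, H2AX and input in the 100 kb bins around Xrcc4 (shaded), in females (top) and males (bottom), against the distance in kb of the bin centre from the start site of Xrcc4, with bars of 1 SE. In females all 3 measures dip in 3 bins to the left of the gene, to -0.41 for input, and are near 0 in the shaded bins.

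The bins whose profile was most like that of the 8 genes were found by the root mean square difference from the median of the lead bins, over 8 log2 ratios to input (gH2AX and H2AX in 4 sex and genotype groups). The nearest 5 autosomal bins overlapped Focad, Pi4k2b with Zcchc4, Acsl1, Cdh2 and Slain2, at differences of 0.0152, 0.0171, 0.0177, 0.0180 and 0.0185. The median lead bin itself had a gH2AX ratio of 0.14 in female KO, 0.16 in female WT, 0.19 in male KO and 0.15 in male WT. The lead bins ran from -0.10 to 0.42 in female WT, so this median profile does not describe each gene. The order among the nearest 5 bins was not tested.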

How the data were processed

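Chromatin immunoprecipitation sequencing with antibodies to gH2AX and H2AX, and sequencing of input DNA, were done in 24 libraries, 2 in each of 12 groups of antibody or input, sex and genotype. The deposited values are raw read counts per 100 kb bin of mm10, with 27268 bins. The submitters' processing notes name the aligner Bowtie2 2.2.9, Trimmomatic 0.36, FastQC 0.11.3, MACS2 2.2.7.1, SAMtools 0.1.19 and deepTools 2.4.2. How duplicates and reads with several alignments were handled is not given in the sources used here. A further 24 columns of the table carry names found among no sample's labels and were not used.

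The fits used edgeR 4.0.16 under R 4.3.3 (quasi-likelihood F test, two-sided), after filterByExpr and TMM scaling on autosomal bins. KO was compared with WT within each antibody and sex, and antibodies with input in one joint fit of the 24 libraries, each with Benjamini-Hochberg adjustment over the 25702 or 25703 bins tested and a threshold of 0.05. Each SE was obtained as log2 change over root F. Biological coefficients of variation, from the common dispersion of each fit, were 2.18% (gH2AX), 2.13% (H2AX) and 1.85% (input). The method was also run on counts simulated from the gH2AX fit itself, without the trend of the KO change on the gH2AX ratio. That run cannot show how calls behave under the trend.

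Members were named by rule, as all bins that overlap the 8 genes in the RefSeq table of GRCm38.p6, which shares its coordinates with mm10; the other 28 genes came from 3 textbook lists and are read in the bin that holds most of the gene. The members and lists were chosen with earlier results of these data known. Alternatives were DESeq2 1.42.0, other scalings, no filter, each library left out, a replicate block, a trend on the gH2AX ratio removed, input subtracted, and other windows for like bins. A bin is not specific to its gene, and its counting error covers reads only.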

Additional observations from a re-analysis of the deposited data

Results flagged for a closer look

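The KO effect on gH2AX differed between female and male cells, by a test of the difference itself, at 5 of the 16 bins. The difference, female effect minus male effect on the log2 scale, was -0.31 in bin 3 of Nhej1, -0.20 in bin 1 of Xrcc6, -0.19 in bin 2 of Xrcc6, -0.17 in bin 3 of Prkdc and -0.12 in the bin of Dclre1c. The same test called 20.7% of all bins lower, 5326 of the 10369 called in either direction. Of bins with a like gH2AX over input ratio it called 89.3% lower for bin 3 of Nhej1, 92.5% for bin 1 and 83.6% for bin 2 of Xrcc6, 31.8% for bin 3 of Prkdc and 62.6% for Dclre1c. For member bins not called, it called 72.2% of like bins lower for the lead bin of Parp1, 70.7% for bin 1 of Nhej1 and 54.6% for Xrcc5. For the remaining uncalled bins the share was 0.12% to 44.6%. Of the 5 bins with a called difference, only bin 3 of Nhej1 lay outside the 5th to 95th percentile of its like bins, with 1.75% of them below it. In that bin the female input change, -0.06, was also below the range of like bins, with 1.29% below it, and the female gH2AX change taken over input was inside, with 36.3% below it. Each sex is 2 KO and 2 WT libraries, so neither sex nor genotype can be told apart from the cultures used.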

How the results depend on the processing

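Counts of called member bins kept within 1.5 times their value under other scalings and without the filter on low counts. DESeq2 called 6 bins in males and 0 in females, where edgeR called 8 and 1, and 109 of all bins in females, where edgeR called 260. Keeping only bins with at least 10 kb of the gene left 8 called in males, 1 in females and 5 for the difference between the sexes. Replicate numbers do not pair the libraries (correlations of deviations between KO and WT of -0.01 to 0.05); with a replicate block the calls were 8 in males, 1 in females and 5 for the difference between the sexes, as without it.

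With the trend on the gH2AX over input ratio removed, 0 bins were called in males, 0 in females and 0 for the difference. The male log2 change then turned to -0.0141 in bin 1 of Nhej1 and to -0.0350 in bin 2 of Xrcc6, and the difference between the sexes to 0.00568 in bin 1 of Xrcc6 and to 0.0113 in Dclre1c. The cause was not tested. With the input change subtracted, 5 bins were called in males and 0 in females. The counts that follow, for fits with a library left out, take calls in both directions together. Without 1 library, 4 to 6 bins were called in males, 0 to 1 in females, 4 to 5 for the difference, and 1 to 5 for gH2AX over input in males. Without female WT replicate 2, the 1 bin called in females was bin 3 of Xrcc4, higher in KO, and the difference had 1 bin higher (bin 3 of Xrcc4, 0.18) and 3 lower. Of the other values of single bins, 542 kept direction and side of the threshold, 50 moved, 40 lost their call and 6 gained one.

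With 2 libraries a group, changes of a few percent are near the limit of the test, and a bin of 100 kb cannot place a signal within a gene.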
